A study of Mus musculus with 86 samples.

Results

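Expression in the soleus of dexamethasone-treated mice given the extract JGT02 at 400 mg/kg was compared with expression in the soleus of mice given dexamethasone alone, over 8 of the 86 libraries of the series. Dexamethasone (DEX) is a synthetic glucocorticoid that wastes skeletal muscle. JGT02 is a hot-water extract of peony root and liquorice root, here at 2 parts to 1 by weight. All mice were male C57BL/6N, 10 weeks old on supply. Both groups were injected with DEX at 25 mg/kg every day for 10 days. The extract was given by gavage 30 minutes after DEX, suspended in a cellulose vehicle, while mice on DEX alone were gavaged with buffer, so an effect of the extract cannot be told apart from one of its vehicle. The compared libraries are DEX mice 1 to 4 and JGT02 400 mg/kg mice 2 to 5. Non-treated mice (5 libraries, buffer in place of DEX) and mice on DEX plus JGT02 at 100 mg/kg (4 libraries) give the levels around them, and the gastrocnemius of mice on DEX (4 libraries) and on DEX plus JGT02 400 mg/kg (5 libraries) gives the other muscle. The fits also hold DEX mice given other peony and liquorice extracts, JGT03 (1 part to 1) and JGT04 (1 part to 2). Each of these was given at 100 and 400 mg/kg. DEX mice given resveratrol at 200 mg/kg are in the fits as well. These groups enter the scaling and the shared estimate of the spread, and are not compared here.

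The soleus is a small calf muscle made mainly of slow and oxidative fibres, with a dense capillary bed. Glucocorticoids bind a nuclear receptor that switches genes on and off, and in muscle they favour protein breakdown through ubiquitin ligases and the autophagy pathway, and reduce the use of glucose. Slow fibres are generally less sensitive to this wasting than fast ones.

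Before the comparison, the libraries were checked against each other. The library labelled JGT02 400 mg/kg mouse 1 was left out. It held the fast-fibre gene Mss51 at 544 CPM (counts scaled to the normalised total of each library), where the other soleus libraries had 0.181 to 12.2, and the slow myosin gene Myh7 at 14.4 CPM, where other soleus libraries except 1 had 4180 to 9140. The exception, JGT02 100 mg/kg mouse 5, at 27.3 CPM, was left out as well. In the 8 libraries compared Myh7 lay, on the same scale, between 4181 (DEX mouse 4) and 8454 CPM (DEX mouse 1). DEX mouse 4 stood apart from the other 7, at -79.3 on a first principal component (42.7% of the variance) on which the others ran from -7.6 to 30.4. Its macrophage markers summed to 553 CPM, where the other 7 had 40.2 to 87.7. Within the JGT02 group, mice 2 and 3 differed from mice 4 and 5: Cebpb, which encodes a stress-responsive transcription factor, stood at 29.1 and 36.8 CPM in the former and at 18 and 15.6 in the latter, against 32.9 to 45.9 in DEX mice. Counts for the main gene lists are therefore also given without DEX mouse 4 and without JGT02 mice 4 and 5. Elsewhere in soleus, Cebpb was at 42.9 to 58.2 CPM in non-treated mice and at 29.3 to 55.2 CPM with JGT02 at 100 mg/kg. In the groups listed after JGT02 400 mg/kg (JGT03, JGT04 and resveratrol) it was at 8.39 to 27.4 CPM. JGT02 mice 4 and 5 thus lay within the range of those later groups and mice 2 and 3 above it. The cause of this split was not tested. Total counts of the 8 libraries ran from 18.8M to 28.9M.

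With JGT02 at 400 mg/kg, 14 of 32 genes of sugar handling, 16 of 37 of fatty acid use and 12 of 34 of autophagy and the lysosome were higher in soleus than with DEX alone, and the other members of these lists mostly did not pass. Markers of endothelial cells were lower in 14 of 15 cases and extracellular matrix genes in 28 of 40. Macrophage markers were lower in 13 of 15 cases, but in 1 of 15 without DEX mouse 4. Of 14696 genes tested 4449 changed at an adjusted p under 0.05 (30.3%), 2002 higher (13.6%) and 2447 lower (16.7%). The median log2 fold change of all genes was -0.03. The libraries of the groups did not overlap in 2820 genes (19.2%), among them 1301 called higher (8.85%) and 1183 called lower (8.05%). These counts depend on which libraries enter: 2955 genes passed without DEX mouse 4, 2008 without JGT02 mice 4 and 5, and 1085 without all 3, whereas 4374 passed without JGT02 mice 2 and 3. The shares against which list counts are read fell with them. Of all genes 10.1% were higher and 9.89% lower without DEX mouse 4, 6.16% and 7.17% without JGT02 mice 4 and 5, and 3.71% and 3.53% without all 3. A fit of these 8 libraries alone, with fewer samples behind the spread, called 775, of which 57.5% were higher, against 45% in the fit of all groups. In it 3.24% of all genes were higher and 2.39% lower, with 6 rises and 1 fall in the sugar list, 1 rise each in the fatty acid and autophagy lists, 9 falls among the endothelial markers and 10 among the matrix genes. A fit with the outlying 100 mg/kg library put back called 1168. Of the 4449 calls 2584 (58.1%) were called in the same direction without DEX mouse 4. With JGT02 mouse 1 put back 5294 genes passed. So did 73 of the 75 that changed among the 88 genes counted as named, which do not include Cnn1.

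**Figure D1:**
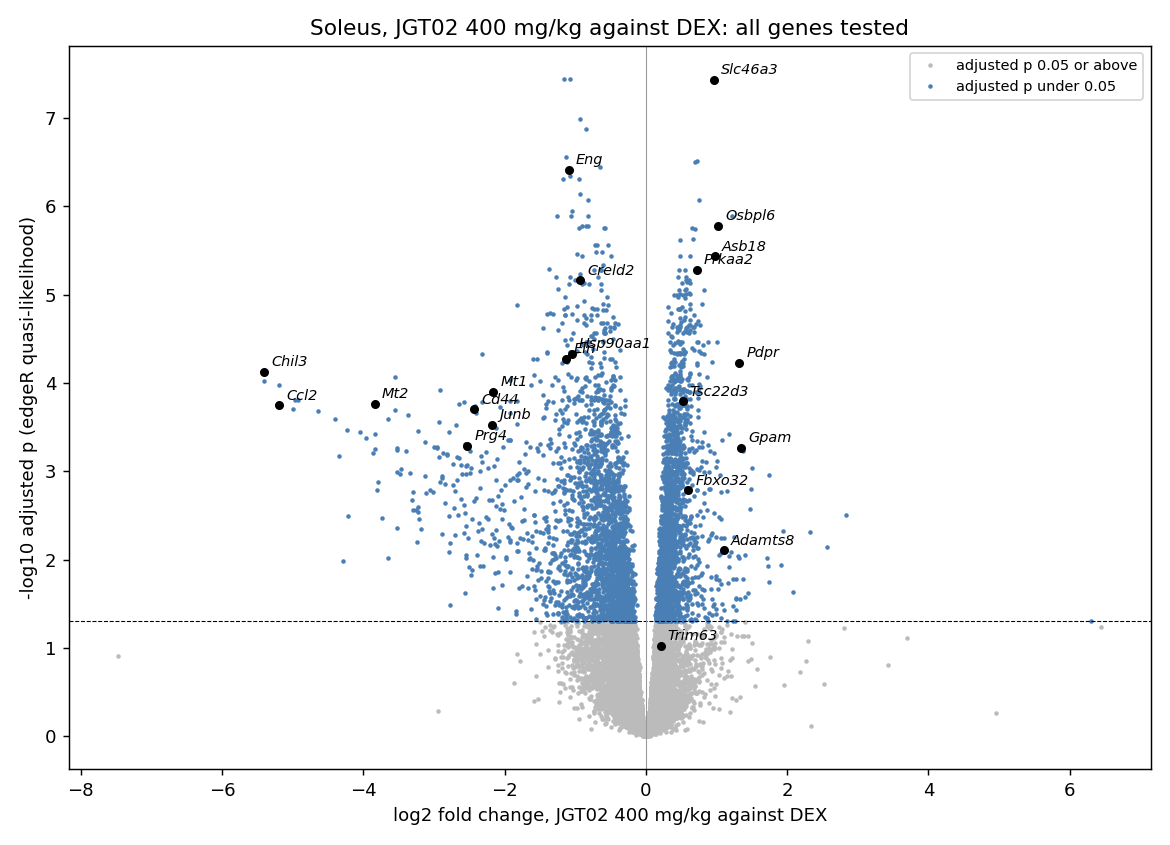
Each point is 1 of 14696 genes, with the log2 fold change of JGT02 400 mg/kg against DEX across and the −log10 of the adjusted p of the edgeR quasi-likelihood test up. Blue points passed 0.05 (dashed line), and black points are labelled genes described in the text. Among the genes labelled, falls reach further from 0 than rises: Chil3 lies at -5.40 and Gpam at 1.35.

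The 12 largest rises that met the naming rule belonged to genes of varied function. Gpam, with the largest, encodes the mitochondrial acyltransferase that starts glycerolipid synthesis. It read 14.4, 13.1, 10.5 and 9.06 CPM in DEX mice 1 to 4 and 30.7, 28.7, 30.9 and 29.3 CPM in JGT02 mice 2 to 5. Every JGT02 library was thus above every DEX library, by a mean of 2.55-fold (log2 1.35 ± 0.28 SE, adjusted p = 0.000538), and non-treated mice had 27.7 to 58 CPM. Pdpr, a regulatory subunit of the phosphatase that activates pyruvate dehydrogenase, went from 5.88 ± 1.13 to 14.6 ± 1.46 CPM (SD, n = 4 and 4, log2 1.32 ± 0.23). Osbpl6, a lipid-binding protein gene, read 9.64, 10.8, 11 and 7.3 CPM in DEX mice and 20.5, 14.9, 20.9 and 22.2 CPM in JGT02 mice (log2 1.02 ± 0.13, adjusted p = 1.66e-06). Slc46a3, which encodes a lysosomal transporter, had the tightest rise of the 12, from 5.93 ± 0.904 to 11.5 ± 1.15 CPM (log2 0.96 ± 0.10, adjusted p = 3.7e-08), and JGT02 mice were above the non-treated range of 6.4 to 7.57 CPM.

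The other 8 of the 12 largest rises lay between log2 0.98 and 1.10. They were the secreted protease gene Adamts8 (1.10 ± 0.31), the kelch-family genes Klhl38 and Klhl33, the membrane protein gene Tmem233, the potassium channel gene Kcnc4, the adhesion gene Amigo3, the ubiquitin ligase adaptor gene Asb18 and 1 gene known only by a clone name. Adamts8 shows how much 1 library can carry: it was at 47.9, 46.3, 36 and 11.6 CPM in DEX mice 1 to 4, and its rise was 0.80 without mouse 4. Kcnc4 was barely apart, with DEX mouse 2 and JGT02 mouse 3 both at 10.5 CPM to 3 digits. By the naming rule all 12 kept their call when any 1 library was left out. Without JGT02 mice 4 and 5, 11 of 12 passed, Adamts8 being the one that did not, and without those and DEX mouse 4, 6 of 12 passed.

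Several of these genes are far more abundant in the fast gastrocnemius. In DEX mice, scaled over both muscles together, 8 of the 12 were higher in every gastrocnemius library than in every soleus library, against 26.1% of all genes, among them Tmem233 (250 ± 1.67 against 13.5 ± 3.64 CPM) and Pdpr (57.9 ± 3.31 against 5.57 ± 1.13 CPM), and 1, Adamts8, was lower in every one, against 24.7% of all genes. The summed level of 10 genes marking the gastrocnemius side ran from 2179 to 4038 CPM in DEX and from 1271 to 6212 CPM in JGT02 soleus libraries, highest in JGT02 mouse 2, and 2 of the 10 passed, both higher. These ranges overlap, and the part of fast-fibre content in the rises was not tested.

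Among genes of sugar handling, 14 of 32 tested rose (43.8%, against 13.6% of all genes) and 4 fell (12.5%, against 16.7%), with a list median of 0.27. Without DEX mouse 4 there were 10 rises and 1 fall (31.2% and 3.12%, against 10.1% and 9.89% of all genes). Without JGT02 mice 4 and 5 there were 9 and 2 (28.1% and 6.25%, against 6.16% and 7.17%). Ppp1r3a, which anchors a phosphatase to glycogen, read 96.6, 98.4, 99.5 and 81.1 CPM in DEX mice and 176, 156, 152 and 142 CPM in JGT02 mice. All JGT02 libraries were well above the DEX libraries (log2 0.74 ± 0.11, adjusted p = 1.99e-05) and overlapped the non-treated range of 149 to 170 CPM. Gys1, glycogen synthase, rose from a range of 251 to 401 CPM to one of 476 to 593 CPM (log2 0.72 ± 0.12), and Pygm, the glycogen phosphorylase that breaks glycogen down, by 0.56 ± 0.14. Slc2a4, the insulin-responsive glucose transporter, rose by 0.61 ± 0.11. Pfkfb1, a regulator of glycolysis, rose by 0.78 ± 0.13, while hexokinase 1, Hk1, which is low in mature fibres, fell by 0.71 on the log2 scale, from 17.3 ± 4.61 to 10.6 ± 0.907 CPM. Gys1, Pygm and Slc2a4 were picked for mention after their values were seen, and exons of Gys1 lie over exons of Ruvbl2.

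Of 37 genes of fatty acid use 16 rose (43.2%, against 13.6% of all genes), 1 fell and 20 did not pass, with a median of 0.27. There were 7 rises and 1 fall without DEX mouse 4, 6 and 0 without JGT02 mice 4 and 5, and 1 and 0 without all 3, a share of 2.7% that is below the 3.71% of all genes in that fit. Etfdh, which passes electrons from fat oxidation to the respiratory chain, read 166, 167, 174 and 102 CPM in DEX mice and 211, 264, 219 and 219 CPM in JGT02 mice (log2 0.58 ± 0.13, adjusted p = 0.000812). The low value of DEX mouse 4 widened this gap, which was 0.43 without it. Ucp3, the muscle uncoupling protein gene, was at 15.7 ± 1.54 and 29.3 ± 3.99 CPM, and its call (log2 0.90 ± 0.34, adjusted p = 0.0406) did not survive the loss of DEX mouse 4. Of 74 nuclear oxidative phosphorylation genes 8 rose and none fell, a share of 10.8% that is below the 13.6% of all genes, and the list median was 0.02. Without DEX mouse 4 there were 4 and 1 (median -0.08), and without JGT02 mice 4 and 5 there were 3 and 1 (median -0.15). Sdha, of complex II, went from 506 ± 100 to 749 ± 48.1 CPM and Ndufs1, of complex I, from 216 ± 44.6 to 311 ± 24.4 CPM. The 13 mitochondrially encoded transcripts held no call.

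Prkaa2 encodes a catalytic subunit of AMP-activated kinase, which senses low energy. Its level was 87.6, 82.2, 79.7 and 64.7 CPM in DEX mice and 133, 118, 129 and 136 CPM in JGT02 mice. The groups were far apart (log2 0.72 ± 0.10, adjusted p = 5.19e-06), and non-treated mice had 119 to 140 CPM. Esrrg, a nuclear receptor gene of oxidative metabolism, rose by 0.63 ± 0.13, and in its list of sirtuin, NAD and PGC-1 genes 8 of 23 rose (34.8%, against 13.6% of all genes) and 3 fell (13%, against 16.7%), with 7 rises and 1 fall without DEX mouse 4, and 5 rises and 2 falls without JGT02 mice 4 and 5. The coactivator gene Ppargc1a, at 22.1 ± 9.04 and 22.2 ± 1.48 CPM, and the deacetylase gene Sirt1, at 12.7 ± 1.67 and 11.6 ± 1.22 CPM, did not pass. Nmrk2, a kinase of the NAD salvage route, fell, from 51.3, 43.7, 38.3 and 195 CPM to 28.9, 25, 13.1 and 20.1 CPM, with or without DEX mouse 4 (log2 -1.92 ± 0.36, and -1.03 without it).

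**Figure D2:**
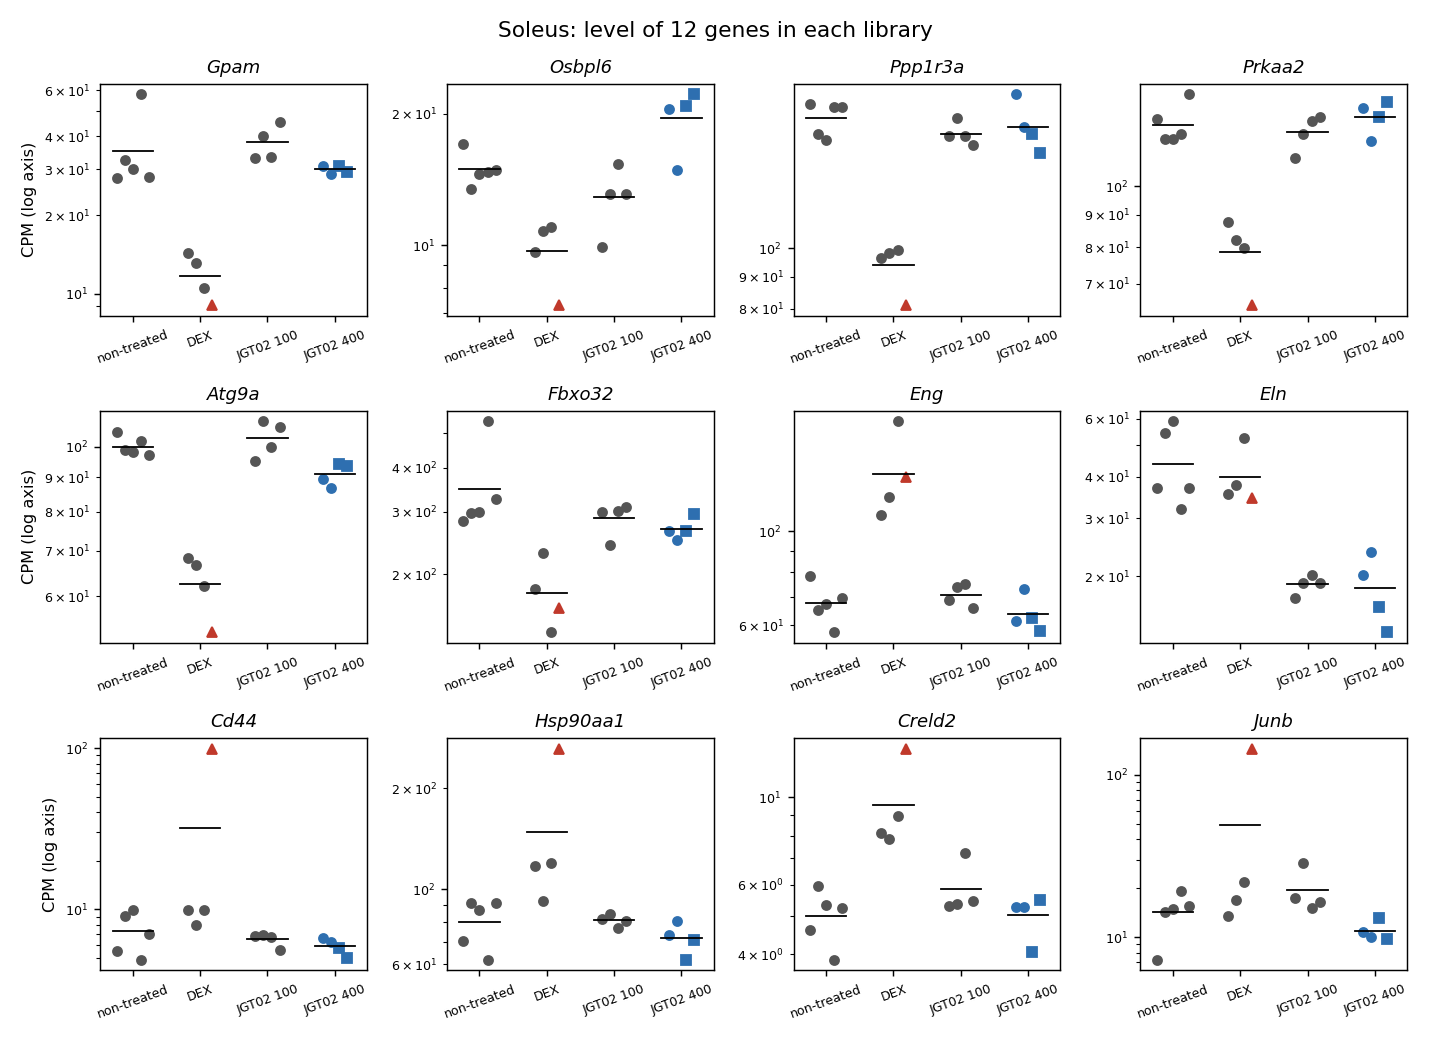
CPM on log axes in every soleus library of 4 groups for 12 genes, with 1 point a library and a bar at each group's mean. The red triangle is DEX mouse 4 and the blue squares are JGT02 400 mg/kg mice 4 and 5. For Gpam, Ppp1r3a, Prkaa2 and Atg9a the DEX libraries lie below every library of the other 3 groups, and for Cd44, Hsp90aa1, Creld2 and Junb DEX mouse 4 is the highest point, at 99.4 CPM for Cd44.

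Among genes of protein breakdown, Fbxo32 (atrogin-1), a ubiquitin ligase gene used as a marker of atrophy, was higher with JGT02, not lower. Its levels were 182, 229, 137 and 160 CPM in DEX mice and 265, 249, 265 and 296 CPM in JGT02 mice. The groups did not overlap (log2 0.60 ± 0.14, adjusted p = 0.00163). Non-treated mice had 283 to 540 CPM. Among JGT02 mice only mouse 5, at 296 CPM, reached that range, and all DEX mice lay below it. The companion ligase gene Trim63 (MuRF1) was at 97.9, 75.9, 94.6 and 122 CPM and at 121, 99.4, 113 and 121 CPM, an overlap that did not pass (log2 0.21 ± 0.10, adjusted p = 0.0945). Without DEX mouse 4, its highest DEX library, Trim63 did pass, at 0.34. Of 34 genes of the atrophy ligase list 9 rose (26.5%, against 13.6% of all genes) and 6 fell (17.6%, near the 16.7% of all genes). Without DEX mouse 4, 8 rose and 2 fell (23.5% and 5.88%, against 10.1% and 9.89%), and without JGT02 mice 4 and 5, 4 rose and 3 fell (11.8% and 8.82%, against 6.16% and 7.17%). The 6 that fell included the metallothionein genes Mt1 and Mt2, which bind metals and are not ligases. Kbtbd13, a ligase adaptor linked to muscle disease, rose by 0.60 ± 0.14, from 15.1 ± 2.08 to 22.9 ± 2.57 CPM.

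Autophagy and lysosome genes rose in 12 of 34 cases (35.3%, against 13.6% of all genes) and fell in none, with a median of 0.16. There were 10 rises without DEX mouse 4 (29.4%, against 10.1%), 6 without JGT02 mice 4 and 5 (17.6%, against 6.16%) and no fall in either. In the fit of the 8 libraries alone there was 1 rise, no larger a share than the 3.24% of all genes. Atg9a, a lipid scramblase gene needed to build autophagosomes, read 68.3, 66.7, 62.2 and 53 CPM in DEX mice and 89.4, 86.9, 94.1 and 93.7 CPM in JGT02 mice (log2 0.54 ± 0.10, adjusted p = 0.000176). Of its 31-base words 32% also occur in other annotated genes, and it overlaps exons of Ankzf1, so part of its reads could belong elsewhere. Ulk1, the kinase that starts autophagy, rose by 0.44 ± 0.11, but not without JGT02 mice 4 and 5 (0.33). Of 35 proteasome genes 5 rose, a share of 14.3% near the 13.6% of all genes, and none fell, with 6 rises without DEX mouse 4 and 2 without JGT02 mice 4 and 5. The activator gene Psme4 went from 113 ± 7.57 to 157 ± 16.5 CPM (log2 0.47 ± 0.07, adjusted p = 5.19e-06).

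A few promoters are shown because the letters of known muscle and stress motifs stand in them. Promoters of 73 of the 88 genes counted as named from this comparison were found in RefSeq (GRCm38.p6), and the 250 bases before each start were searched on both strands. The MEF2 motif, bound by regulators of muscle genes, was searched with only A or T allowed in its middle bases, and 0.508% of all 32851 promoters hold it. It stood in 5 of the 73 genes, namely Asb18, Esrrg, Klhl33, Per1 and Ppp1r3a, all of which rose. For every motif the share is per promoter and the count per gene. A gene with several promoters counts if any of them matches, so share and count are unlike measures. Asb18 (chr1:90014667-90014916, minus strand), Ppp1r3a (chr6:14755275-14755524, minus strand) and Klhl33 (chr14:50897484-50897733, minus strand) are printed 5′ to 3′ with the match in capitals, which starts 11, 100 and 50 bases before the gene's start.
Asb18: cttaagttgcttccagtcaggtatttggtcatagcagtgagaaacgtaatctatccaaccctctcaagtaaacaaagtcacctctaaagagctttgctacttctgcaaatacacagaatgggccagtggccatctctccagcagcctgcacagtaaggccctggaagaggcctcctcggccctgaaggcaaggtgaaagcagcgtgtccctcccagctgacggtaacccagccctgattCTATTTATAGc
Ppp1r3a: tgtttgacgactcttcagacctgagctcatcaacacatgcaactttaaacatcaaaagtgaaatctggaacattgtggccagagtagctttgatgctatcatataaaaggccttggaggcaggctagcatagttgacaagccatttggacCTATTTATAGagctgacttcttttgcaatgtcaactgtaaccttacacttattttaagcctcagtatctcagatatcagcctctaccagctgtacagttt
Klhl33: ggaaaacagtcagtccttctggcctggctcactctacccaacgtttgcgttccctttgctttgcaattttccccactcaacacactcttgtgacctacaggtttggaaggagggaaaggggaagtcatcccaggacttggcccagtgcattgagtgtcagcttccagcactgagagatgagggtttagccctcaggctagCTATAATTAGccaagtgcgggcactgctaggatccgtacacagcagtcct

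The endoplasmic reticulum stress element, searched as CCAAT, any 9 bases and CCACG, stands in 0.113% of all promoters and in 1 of the 73 genes, Creld2, an endoplasmic reticulum chaperone-like gene that fell. Its promoter (chr15:88819396-88819645, plus strand) holds the reverse complement, in capitals, starting 126 bases before the gene's start.
Creld2: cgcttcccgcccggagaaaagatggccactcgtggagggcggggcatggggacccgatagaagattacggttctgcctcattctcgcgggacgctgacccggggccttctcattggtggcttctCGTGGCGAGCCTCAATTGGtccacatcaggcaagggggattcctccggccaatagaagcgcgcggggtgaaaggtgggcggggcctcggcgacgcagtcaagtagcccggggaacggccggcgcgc

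These 4 were chosen after the matches were seen, and a match of letters is not evidence of binding. The other motifs searched were the E-box CACGTG (6.02% of all promoters; 6 of the 73 genes, Acvr1b, Fkbp5, Klf15, Pdpr, Per1 and Sirt1), the glucocorticoid response element (0.387%; 3, Jund, Mt1 and Trim63), the FoxO site GTAAACAA (1.07%; 2, Asb18 and Trim63), the cyclic AMP element TGACGTCA (1.55%; 2, Hlf and Pdpr), the AP-1 site TGAGTCA (4.46%; 2, Esrrg and Mt2) and the heat shock element (0.466%; 0). The Asb18 window holds both a MEF2 and a FoxO match, and the end of the stress element shares the letters CACG with the E-box.

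Of 36 genes of the glucocorticoid receptor and its targets, 4 rose (11.1%, against 13.6% of all genes) and 11 fell (30.6%, against 16.7%). Without DEX mouse 4 there were 3 rises and 5 falls (8.33% and 13.9%, against 10.1% and 9.89% of all genes). Without JGT02 mice 4 and 5 there were 1 rise and 6 falls (2.78% and 16.7%, against 6.16% and 7.17%). Tsc22d3, which encodes the glucocorticoid-induced leucine zipper protein, was nearly constant in DEX mice, at 39.3, 38.8, 40.3 and 38.3 CPM, and stood at 62.8, 50, 52.8 and 59.5 CPM in JGT02 mice. All JGT02 libraries were higher (log2 0.52 ± 0.10, adjusted p = 0.00016) and overlapped the non-treated range of 47.1 to 61.1 CPM. Klf15, a glucocorticoid-induced regulator of amino acid breakdown, went from 18.9 ± 4.71 to 24.3 ± 1.32 CPM (log2 0.37 ± 0.12, adjusted p = 0.0203), with overlapping libraries and no call without DEX mouse 4 (0.21). Fkbp5, a co-chaperone of the receptor, was at 40.3 ± 6.25 and 33.2 ± 2.53 CPM and did not pass (log2 -0.28 ± 0.12, adjusted p = 0.065).

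The rest of the panel of 16 atrophy and fibre genes did not pass. Foxo1, Foxo3, Pdk4, Mstn and Igf1 lay between log2 -0.32 (Igf1) and 0.75 (Mstn). The adult myosin genes Myh7, Myh2, Myh1 and Myh4 lay between -0.02 and 0.53, and Myh4 alone ranged from 185 to 2771 CPM over the JGT02 mice. Among fast-fibre genes 4 of 22 rose (18.2%, against 13.6% of all genes) and none fell, with 3 rises without DEX mouse 4, 3 without JGT02 mice 4 and 5 and 2 in the fit of the 8 libraries. The 4 included the calcium pump gene Atp2a1 (8140 ± 877 to 12600 ± 1650 CPM, log2 0.63 ± 0.14) and the AMP deaminase gene Ampd1 (log2 0.68 ± 0.11, adjusted p = 2.65e-05). Among slow-fibre genes 3 of 20 rose and 2 fell (15% and 10%, against 13.6% and 16.7% of all genes), but none rose and 1 fell without DEX mouse 4, and none passed either way without JGT02 mice 4 and 5. One of the 2, the stretch-sensing gene Csrp3, was at 2476 CPM in DEX mouse 4 and 260 to 768 CPM in the other DEX mice.

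Clock genes rose in 6 of 21 cases (28.6%, against 13.6% of all genes) and fell in 2 (9.52%, against 16.7%), with 5 rises and 1 fall without DEX mouse 4, and 3 rises and no fall without JGT02 mice 4 and 5. Per1, a clock repressor that glucocorticoids also induce, was at 23.6, 21.1, 22.1 and 19.7 CPM in DEX mice and at 31.5, 24.6, 33.5 and 35.9 CPM in JGT02 mice (log2 0.54 ± 0.17, adjusted p = 0.0136), above the non-treated range of 10.9 to 16.7 CPM. The output gene Hlf rose by 0.49 ± 0.14, and Clock, of the activating arm, fell by 0.42 on the log2 scale. None of these 3 calls held without DEX mouse 4 and JGT02 mice 4 and 5 together. Per1 and Clock lost theirs without JGT02 mice 4 and 5, and Hlf without DEX mouse 4. The time of day of sampling is not in the labels. Among growth genes 6 of 34 rose and 4 fell, shares of 17.6% and 11.8% near the 13.6% and 16.7% of all genes, with 4 rises and 1 fall without DEX mouse 4, and 3 rises and no fall without JGT02 mice 4 and 5. One of the 6 was Acvr1b, a receptor for activin and myostatin signals, which went from 15.9 ± 0.536 to 29.3 ± 4.72 CPM (log2 0.88 ± 0.14, adjusted p = 3.46e-05), above the non-treated range of 12.8 to 19.3 CPM.

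Of 15 markers of endothelial cells, which line blood vessels, 14 fell (93.3%, against 16.7% of all genes) and none rose, with a median of -0.55. Without DEX mouse 4 there were 14 falls (against 9.89% of all genes), without JGT02 mice 4 and 5 there were 12 (80%, against 7.17%), and without all 3 there were 8 (53.3%, against 3.53%). In bulk tissue fewer cells of a type and less RNA per cell cannot be told apart. The summed level of the 15 markers was 721, 857, 954 and 838 CPM in DEX mice and 533, 619, 557 and 523 CPM in JGT02 mice, with no overlap, and 541 to 685 CPM in non-treated mice. Eng, a co-receptor of transforming growth factor family signals, read 109, 120, 181 and 134 CPM in DEX mice and 61.6, 73.2, 62.6 and 58.3 CPM in JGT02 mice (log2 -1.09 ± 0.13, adjusted p = 3.86e-07). It stood at 57.8 to 78.2 CPM in non-treated mice, and its exons lie over exons of Fpgs. The tight-junction gene Cldn5 fell by 0.97 on the log2 scale, the adhesion gene Pecam1 by 0.69 and the VEGF receptor gene Kdr by 0.53, the last not without JGT02 mice 4 and 5. Pecam1 and Kdr were picked after their values were seen.

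Extracellular matrix genes fell in 28 of 40 cases (70%, against 16.7% of all genes) and rose in none, with a median of -0.76. Without DEX mouse 4, 14 fell (35%, against 9.89%), without JGT02 mice 4 and 5, 9 fell (22.5%, against 7.17%), and without all 3, 6 fell (15%, against 3.53%). Without JGT02 mice 2 and 3, 35 fell. The summed matrix level was 1752 to 2791 CPM in DEX mice, 1680 and 1622 CPM in JGT02 mice 2 and 3 and 1238 and 1010 CPM in JGT02 mice 4 and 5. Eln, which encodes elastin, did not rest on DEX mouse 4. It read 35.5, 37.8, 52.5 and 34.5 CPM in DEX mice and 20.2, 23.7, 16.1 and 13.5 CPM in JGT02 mice (log2 -1.13 ± 0.19, adjusted p = 5.29e-05), with 32 to 59 CPM in non-treated mice. The microfibril gene Fbn1 fell from 27.3 ± 11.4 to 11.1 ± 1.94 CPM. Of 12 markers of fibro-adipogenic cells, the connective tissue progenitors of muscle, 4 fell (33.3%, against 16.7% of all genes), among them Pdgfra (11.7 ± 1.19 to 6.84 ± 1.45 CPM) and Cd34 (66.3 ± 8.39 to 44.2 ± 5.29 CPM), and 5 fell without DEX mouse 4 and 3 without JGT02 mice 4 and 5. Cd34 is also made by endothelial cells.

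The largest falls in size belonged mostly to genes raised in DEX mouse 4. Prg4, the joint lubricant gene, had the largest fall of the 12 named, at 86.8, 30.4, 19.3 and 124 CPM in DEX mice and 13.1, 13.3, 10.5 and 8.28 CPM in JGT02 mice (log2 -2.53 ± 0.53, adjusted p = 0.000514). Cd44, the hyaluronan receptor gene, shows the role of mouse 4 best. It read 9.94, 7.98, 9.95 and 99.4 CPM in DEX mice and 6.64, 6.28, 5.72 and 5.01 CPM in JGT02 mice, a fall of log2 -2.43 ± 0.46 with that mouse and -0.65 without it. The others were the actin-binding genes Cotl1 and Capg, the matrix gene Vcan, the matrix protease gene Adamts9, Mt1, the interleukin receptor gene Il4ra, Nmrk2, the sodium pump regulator gene Fxyd5, Grrp1 and S100a10, at -2.42 to -1.45 with all 8 libraries and -1.08 to -0.66 without DEX mouse 4. All 12 held without JGT02 mice 4 and 5, 3 of 12 without those and DEX mouse 4, and 1 of 12, Prg4, in the fit of the 8 libraries alone. Prg4 has exons over exons of Tpr.

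Immune cell genes were high in that same library. Of 15 macrophage markers 13 fell (86.7%, against 16.7% of all genes), but 1 of 15 without DEX mouse 4 (6.67%, against 9.89%) and 8 without JGT02 mice 4 and 5, and their summed level was 87.7, 57.7, 82.4 and 553 CPM in DEX mice and 40.2 to 58.2 CPM in JGT02 mice. Of 8 antigen-presenting markers 7 fell, and none without it. All 3 neutrophil markers tested fell, and none of them without DEX mouse 4 or without JGT02 mice 4 and 5. The chemokine gene Ccl2 read 0.944, 0.378, 0.697 and 29 CPM in DEX mice and 0.197 to 0.221 CPM in JGT02 mice, and did not pass without mouse 4 (log2 -1.65). The same was true of the lysozyme gene Lyz2, of Chil3, of Cd74, the invariant chain of antigen presentation, and of Mt2. Of the 31-base words of Lyz2 and Chil3, 32.8% and 41.5% also occur elsewhere. Of 22 inflammatory cytokine and chemokine genes 13 fell (59.1%, against 16.7% of all genes) and 1 rose, or 7 and 0 without DEX mouse 4 (31.8%, against 9.89%) and 11 and 0 of 24 without JGT02 mice 4 and 5. Of 14 lymphocyte markers only 1, Cd79b, passed the filter on low counts, and it stood at 0.473 CPM or less in all 8 libraries.

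Stress and immediate-early genes followed the same library in part. Of 29 genes of the unfolded protein and ATF4 response 12 fell (41.4%, against 16.7% of all genes) and 2 rose. There were 7 falls and 2 rises without DEX mouse 4, while without JGT02 mice 4 and 5 there were 4 and 1, and without all 3 there were 1 and 0. Creld2 read 8.1, 7.86, 8.95 and 13.3 CPM in DEX mice and 5.28, 5.26, 4.06 and 5.48 CPM in JGT02 mice (log2 -0.93 ± 0.13, adjusted p = 6.9e-06), with all JGT02 libraries inside the non-treated range of 3.88 to 5.95 CPM. Sdf2l1, another chaperone partner, fell by 1.09 on the log2 scale, and Herpud1, which helps clear misfolded proteins, rose by 0.35 ± 0.08. Of 22 heat shock genes 7 fell (31.8%, against 16.7% of all genes), with 4 without DEX mouse 4 and 4 without JGT02 mice 4 and 5. Hsp90aa1, the inducible heat shock protein 90 gene, was at 117, 92.3, 120 and 262 CPM in DEX mice and at 73.2, 80.4, 61.9 and 70.8 CPM in JGT02 mice, a fall of log2 -1.05 ± 0.18 that was -0.61 without mouse 4. Other genes hold 51.4% of its 31-base words. The co-chaperone gene Dnaja1 fell by 0.44. Hspb1, at 269 to 2041 CPM in DEX mice, fell, but not without mouse 4, and 52.3% of its words occur elsewhere. Of 27 immediate-early genes 13 fell (48.1%, against 16.7% of all genes), with 6 without DEX mouse 4 and 9 without JGT02 mice 4 and 5. Junb was at 145 CPM in DEX mouse 4 and at 13.5 to 21.8 CPM in the other DEX mice, and did not pass without it, whereas Jund (72.4 ± 11.9 to 53.2 ± 3.65 CPM) did. Ribosomal protein genes fell in 15 of 48 cases (31.2%, against 16.7% of all genes), in 3 without DEX mouse 4 (6.25%, against 9.89%), in 14 without JGT02 mice 4 and 5 (29.2%, against 7.17%) and in 1 without JGT02 mice 2 and 3 (2.08%, against 16.4%). The quinone-detoxifying gene Nqo1 rose, from 21.7 ± 5.5 to 35.6 ± 4.68 CPM (log2 0.71 ± 0.15), and the translation repressor gene Eif4ebp2 rose by 0.70 ± 0.24.

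**Figure D3:**
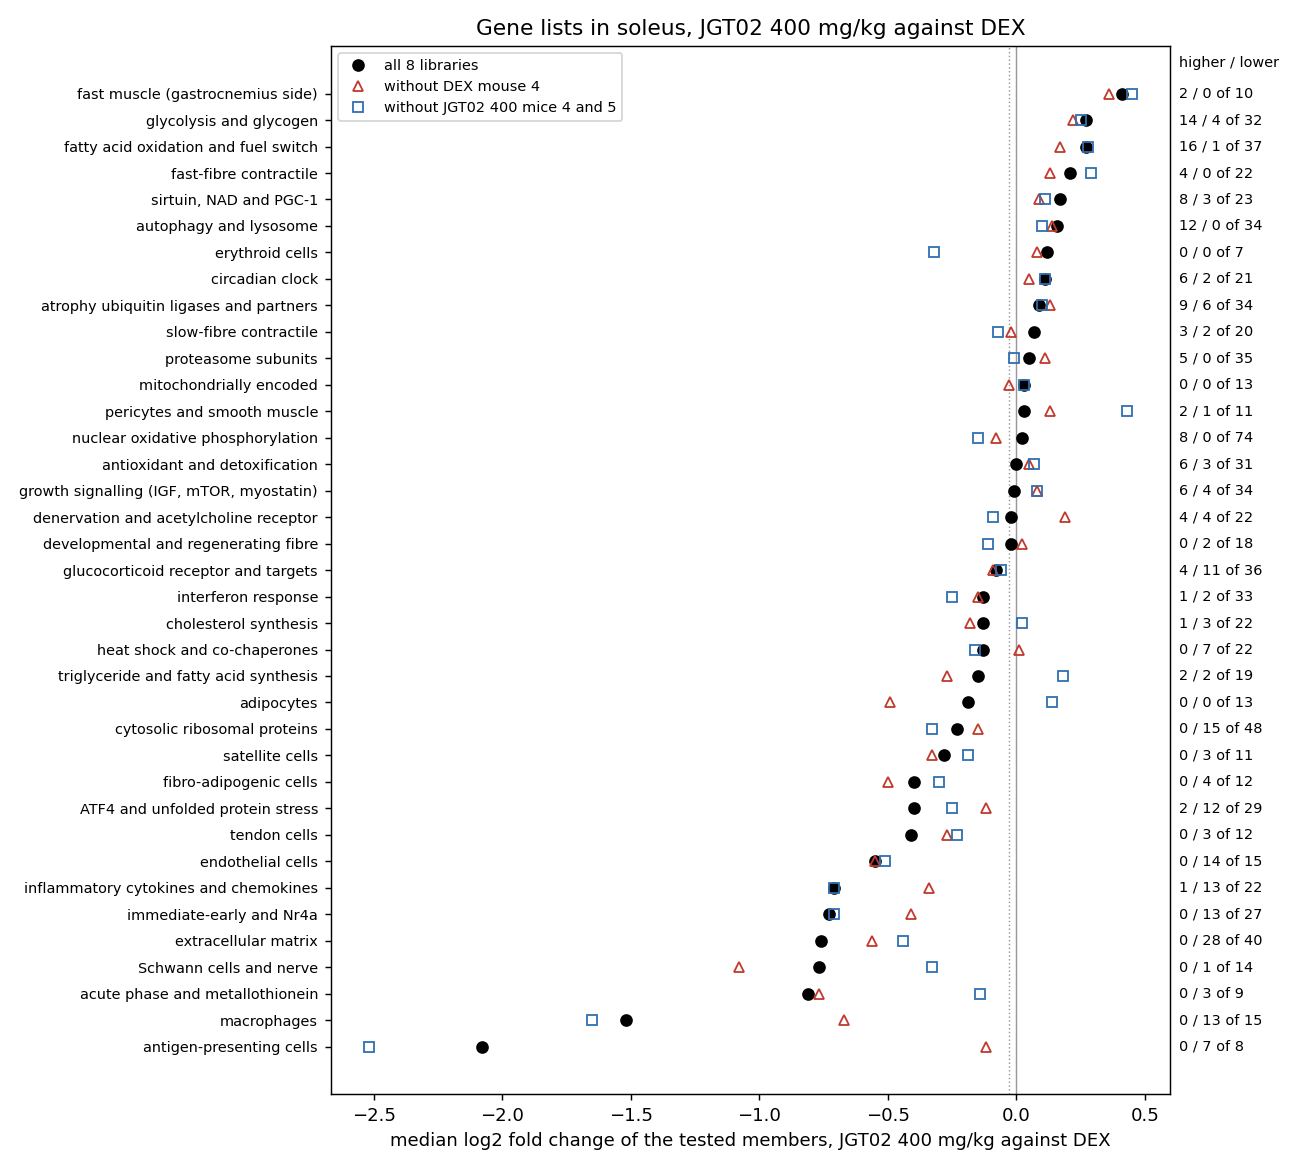
Median log2 fold change of the tested genes of each list with at least 7 tested, JGT02 400 mg/kg against DEX, for all 8 libraries (black), without DEX mouse 4 (red) and without JGT02 mice 4 and 5 (blue), with the genes called higher and lower at the right and the median of all genes as a dotted line. The endothelial median stays near -0.55, while the antigen-presenting median moves from -2.08 to -0.12 without DEX mouse 4.

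Other cell type markers were read from the same libraries. Smooth muscle markers depended on 1 JGT02 library: Cnn1, a smooth muscle actin-binding gene, was at 29.8 CPM in mouse 2 and at 1.58 to 2.61 CPM in JGT02 mice 3 to 5, against 2.41 to 5.27 CPM in DEX mice, so its rise (log2 1.41 ± 0.49) turned to -0.73 without mouse 2. Schwann cell and nerve markers varied within both groups, summing to 915, 178, 791 and 115 CPM in DEX mice and 646, 155, 164 and 159 CPM in JGT02 mice, with 1 of 14 called lower, 6 of 14 without DEX mouse 4, none without JGT02 mice 4 and 5 and 11 without JGT02 mice 2 and 3. Of 13 adipocyte markers none passed, and their sums overlapped (443 to 1190 CPM in DEX, 491 to 1120 CPM in JGT02 mice). Erythroid genes held no call. Satellite cell markers fell in 3 of 11 cases (27.3%, against 16.7% of all genes) with DEX mouse 4, in 3 without it and in 2 without JGT02 mice 4 and 5, among them the receptor gene Notch1 (14.9 ± 3.7 to 8.68 ± 0.516 CPM), which other cell types also express. Tendon markers fell in 3 of 12 cases (25%, against 16.7%), and in 1 without DEX mouse 4.

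The 2 doses of JGT02 differed in few genes. Against 100 mg/kg, the 400 mg/kg group had 10 calls among 14696 genes (0.068%), 4 higher (0.0272%) and 6 lower (0.0408%), with 1479 genes at an unadjusted p under 0.05 and 45 calls by DESeq2. Nr1d1, a clock repressor, was the one gene that met the naming rule, at 132 ± 15.9 against 238 ± 22.9 CPM (SD, n = 4 and 4, log2 -0.85 ± 0.13, adjusted p = 0.00349). Its libraries ran from 110 to 147 CPM at the higher and from 204 to 254 CPM at the lower dose. Osbpl6 was higher (log2 0.61 ± 0.13, adjusted p = 0.0466) and Fkbp5 lower, at 29.5 to 35 against 43.6 to 54.7 CPM (log2 -0.56 ± 0.12, adjusted p = 0.0466). The other 7, named after their values were seen, were Gm13568, Gm29331 and Actg2, higher, and Banp, Ciz1, Eya1 and Leo1, lower, and Actg2 rested on JGT02 400 mg/kg mouse 2, at 23.6 CPM. For genes described above the intervals bound a dose difference: Eng had log2 -0.15 (95% interval -0.40 to 0.10), Gpam -0.35 (-0.88 to 0.18), Fbxo32 -0.10 (-0.38 to 0.18) and Ppp1r3a 0.04 (-0.18 to 0.26). No list held more than 1 call between the doses. Counts moved from 1 to 18 when single libraries were left out, 777 genes passed with the outlying 100 mg/kg library put back, and the 43 calls without JGT02 400 mg/kg mice 4 and 5 were 42 higher and 1 lower.

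Against non-treated mice the JGT02 400 mg/kg soleus still differed in 1305 genes (8.88%), 654 higher (4.45%) and 651 lower (4.43%), and without JGT02 mouse 2 in 785. This comparison carries DEX and the extract together and uses the same JGT02 libraries as above. Lcn2, an iron-binding acute phase gene, was at 21.5 ± 3.76 against 1.11 ± 0.545 CPM (n = 4 and 5, log2 4.27 ± 0.30, adjusted p = 2.95e-13). The adipocyte genes Lep (log2 3.44 ± 0.75), Cidec (2.71 ± 0.60) and Adipoq (2.63 ± 0.57) and the haemoglobin-binding gene Hp (2.87 ± 0.65) were higher, and 8 of 13 adipocyte markers were called higher (61.5%, against 4.45% of all genes). The adipocyte markers summed to 994 and 1123 CPM in JGT02 mice 2 and 3, but to 495 and 491 CPM in mice 4 and 5. Non-treated mice had 390 to 595 CPM, and mice on DEX alone 443 to 1190 CPM. Arntl, the core clock activator, was lower, at 2.46 ± 0.757 against 21.8 ± 2.73 CPM (log2 -3.15 ± 0.19, adjusted p = 6.82e-15). The antigen presentation gene Cd74, the endothelial receptor gene Aplnr, the fibril gene Mfap4 and the collagen gene Col3a1 were also lower, by log2 -2.83 to -1.66. In these lists 12 clock genes of 21 were higher and 5 lower, 17 of 40 matrix genes were lower and 2 higher, and 10 of 19 genes of triglyceride and fatty acid synthesis were higher. Eln was lower than in non-treated mice (log2 -1.26 ± 0.18), while Eng (-0.08 ± 0.12) and Prkaa2 (0.04 ± 0.09) did not pass.

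The change with JGT02 400 mg/kg differed between soleus and gastrocnemius in 2518 of 15142 genes (16.6%), tested as an interaction, with 1731 more positive in soleus (11.4%) and 787 more negative (5.2%). All values of this comparison come from the fit of both muscles, which has its own scaling, so soleus levels and changes differ slightly from those of the soleus fit above. Without soleus DEX mouse 4 there were 1641, without JGT02 soleus mouse 5 there were 1650, and without JGT02 soleus mice 4 and 5 there were 928. With the outlying 100 mg/kg library of each muscle put back, 116 passed. Of the 88 genes counted as named, 44 differed between the muscles in the main fit, and none of these was among the 116. Ppp1r3c, another glycogen-targeting subunit, fell in gastrocnemius, from 219 ± 66 to 70.4 ± 8.53 CPM, and was at 124 ± 28 and 103 ± 4.1 CPM in soleus (difference log2 1.38 ± 0.26, adjusted p = 0.000199). Pdpr and Tmem233 went up in soleus and stood at 57.9 ± 3.31 and 66.5 ± 5.12 CPM, and at 250 ± 1.67 and 231 ± 11.1 CPM, in gastrocnemius (differences 1.19 ± 0.24 and 1.24 ± 0.27). Mafa, a transcription factor gene, and Pm20d2 differed by 1.43 ± 0.36 and 1.25 ± 0.33. Anxa1, Aebp1, S100a6 and Sec61b differed by -0.98 to -0.92.

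In the fit of both muscles Eng fell in both, by log2 -1.02 in soleus (-1.09 in the soleus fit) and -0.52 ± 0.11 in gastrocnemius (adjusted p = 0.00279), and the gap of -0.51 ± 0.16 passed (adjusted p = 0.0183). Acvr1b rose in both, by 0.94 (0.88 in the soleus fit) and 0.60 ± 0.11, and its difference did not pass (0.35 ± 0.16). Tsc22d3 rose by 0.59 in soleus (0.52 in the soleus fit) and was at -0.03 ± 0.11 in gastrocnemius, where it did not pass (difference 0.62 ± 0.16, adjusted p = 0.00487). Fkbp5 was at 77.7 ± 5.61 and 44.4 ± 2.74 CPM in gastrocnemius with DEX and with JGT02, and at 38 ± 5.81 and 32.8 ± 2.48 CPM in soleus (difference 0.60 ± 0.19, adjusted p = 0.0212). Of 34 autophagy and lysosome genes 16 were more positive in soleus (47.1%, against 11.4% of all genes) and none more negative, Atg9a by 0.61 ± 0.11 (adjusted p = 0.000151). Of 32 sugar-handling genes 15 were more positive (46.9%) and 2 more negative (6.25%, against 5.2% of all genes). The part of fast-fibre content in these differences was not tested. Of 20 slow-fibre genes 5 were more negative (25%) and 1 more positive, Myh7 by -1.06 ± 0.32, standing at 284 ± 106 CPM in DEX and 607 ± 327 CPM in JGT02 gastrocnemius. The difference for Fbxo32 did not pass (0.41 ± 0.25, adjusted p = 0.285).

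**Figure D4:**
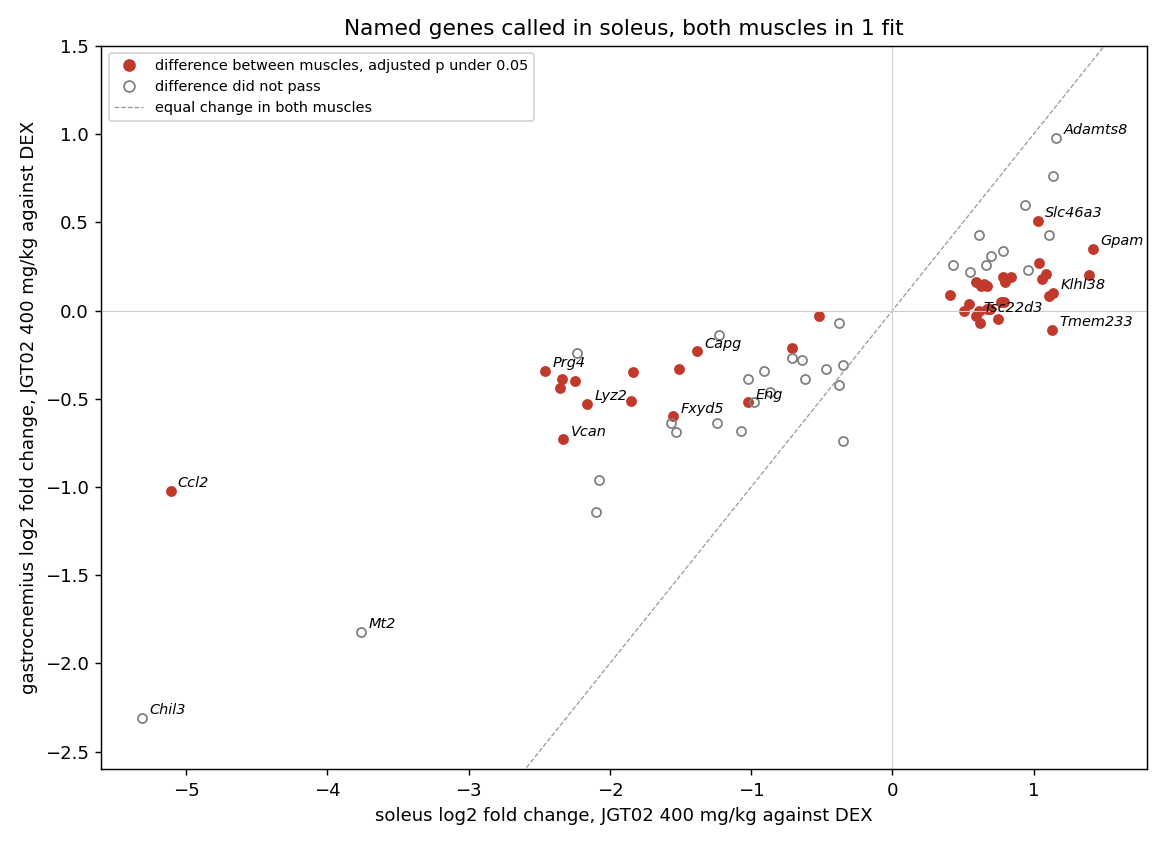
Log2 fold change of JGT02 400 mg/kg against DEX in soleus (across) and gastrocnemius (up) for the named genes called in soleus, from 1 fit of both muscles. Filled red points passed the test of the difference, and the dashed line marks equal change. Gpam lies at 1.42 across and 0.35 up, and Tmem233 lies at 1.13 across and -0.11 up.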

How the data were processed

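The authors deposited a table of expected counts per gene symbol, and the submitters' processing notes name GRCm38, RSEM 1.3.3, STAR 2.7.3a, Trim Galore 0.6.5 and FastQC 0.11.9. The strand setting and annotation are not given in the sources used here. RNA was taken with TRIzol and libraries made with a directional kit, per the labels' protocols, and all titles carry the same batch name. Expected counts (92% whole, tolerance 0) were rounded. Genes were kept with filterByExpr of edgeR 4.0.16 (R 4.3.3), scaled by TMM and fitted over 41 soleus libraries in 9 groups, or 83 libraries in 18 groups for the comparison of the muscles. The quasi-likelihood test of edgeR gave p values, Benjamini-Hochberg adjusted over all genes tested, with 0.05 as the threshold. SEs are of log2 fold changes, SDs of CPM.

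Replicates carry mouse numbers, per the labels. Whether both muscles of a number come from 1 mouse is not stated, and p values measure only the spread between these samples. Genes were named where the call held leaving out any 1 library, the groups did not overlap, the mean was at least 5 CPM and the gene was not a predicted one: the 12 largest rises and falls (5 in other comparisons). In the comparison of the muscles overlap was not part of the rule. A panel of 16 and up to 2 genes per list and direction were added, and not all of these were used in the text. Gys1, Pygm, Slc2a4, Pecam1, Kdr and Hspb1 were picked after their values were seen. The comparison, lists and panel were chosen with earlier results of these data known. Counts of named genes rest on 88 genes. They leave out Cnn1, Hmox1, Cebpb, Cd79b and Mss51, which the text also names, and genes named only from the other comparisons. Of the 88, 87 had a position in GENCODE vM21. Of them 10 share over 10% of their 31-base words with other genes, and 31 lie over opposite-strand exons, which counting without strand would mix. On simulated data for this comparison (14576 genes) recovery was 53.7% at 1.5-fold, 79.1% at 2-fold and 93.9% at 4-fold, and 0.063% of unchanged genes were called. The simulation gave every library a common mean per gene, changed few genes and held no outlying library or split within a group. These rates therefore need not hold for the real libraries. The alternatives tried were the DESeq2 1.42.0 test, edgeR with DESeq2 scaling, edgeR on unfiltered genes, other sets of libraries and a replicate block. Of the genes the rule gave for the comparison of the muscles, 1 is not reported here. Figures used Python 3.11.15, pandas 2.3.3 and matplotlib 3.10.9.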

Additional observations from a re-analysis of the deposited data

Results flagged for a closer look

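In 28 of 176 pairs of gene and group, 1 library lay further from the other 3 than Dixon's 95% critical value allows. Chance gives about 1 in 20 for independent groups, but these genes were mostly chosen for changes in the same libraries and share them, so that rate is no chance value here. DEX mouse 4 was the high one for 20 genes. Its levels in CPM were Cd44 99.4, Cotl1 44.3, Vcan 28.8, Adamts9 26.8, Mt1 313, Il4ra 62.6, Nmrk2 195, Fxyd5 77.8, Grrp1 21.2, S100a10 95.4, Capg 46.1, Pdgfra 13.5, Lyz2 195, Chil3 71.9, Ccl2 29, Cd74 54.8, Mt2 258, Hsp90aa1 262, Sdf2l1 11.1 and Junb 145. It was the low one for 4 genes, at Klhl33 2.87, Ppp1r3a 81.1, Etfdh 102 and Slc2a4 199 CPM. The other 4 were Amigo3 in DEX mouse 2, at 4.54 CPM, Il4ra and Etfdh in JGT02 400 mg/kg mouse 3, at 7.71 and 264 CPM, and Creld2 in JGT02 400 mg/kg mouse 4, at 4.06 CPM.

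The change with JGT02 400 mg/kg differed between the muscles, by the interaction test of edgeR at an adjusted p under 0.05, in 44 of the 88 genes counted as named, against 16.6% of all genes. The 88 were mostly named for their change in soleus libraries that also enter this test, so the count is a description. The soleus minus gastrocnemius differences in log2 change above 0 were Gpam 1.07, Pdpr 1.19, Klhl38 1.04, Tmem233 1.24, a gene known only by a clone name 1.03, Osbpl6 0.88, Amigo3 0.89, Asb18 0.78, Slc46a3 0.52, Fkbp5 0.6, Tsc22d3 0.62, Herpud1 0.32, Atg9a 0.61, Ulk1 0.51, Psme4 0.5, Kbtbd13 0.53, Ppp1r3a 0.64, Pfkfb1 0.65, Etfdh 0.5, Sdha 0.49, Ndufs1 0.43, Prkaa2 0.59, Ampd1 0.8, Atp2a1 0.68, Eif4ebp2 0.72, Gys1 0.74, Pygm 0.69 and Slc2a4 0.66. Those below 0 were Prg4 -2.12, Cd44 -1.92, Cotl1 -1.95, Vcan -1.6, Adamts9 -1.86, Il4ra -1.49, Nmrk2 -1.34, Fxyd5 -0.95, S100a10 -1.18, Capg -1.16, Myh7 -1.06, Eng -0.51, Pdgfra -0.49, Cd34 -0.49, Lyz2 -1.64 and Ccl2 -4.09. Of the 44, 25 passed without soleus DEX mouse 4, 26 without JGT02 soleus mice 4 and 5, 7 without all 3, 16 in a fit of the 4 groups alone and 0 with the outlying 100 mg/kg libraries put back.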

How the results depend on the processing

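Counts of genes called moved as follows. For JGT02 400 mg/kg against DEX (4449) they were 775 in a fit of the groups compared alone (446 higher, 329 lower), 1168 with the other outlying libraries put back, 2008 without JGT02 mice 4 and 5, 1085 without those and DEX mouse 4 (an alternative chosen after seeing the data) and 2955 (without DEX mouse 4) to 4661 when single libraries were left out. Against 100 mg/kg (10) they were 45 by DESeq2, 2 in the groups compared alone, 28 with JGT02 400 mg/kg mouse 1, 777 with the other outlying libraries, 43 without mice 4 and 5, 52 without mice 2 and 3, and 1 to 18 without single libraries. Against non-treated mice (1305) they were 420 with the other outlying libraries, 780 without mice 2 and 3, and 785 (without JGT02 400 mg/kg mouse 2) to 1162 without single libraries. Between the muscles (2518, 68.7% higher) they were 604 in the groups compared alone (87.6% higher), 116 with the other outlying libraries (81.9% higher), 928 without mice 4 and 5, 430 without those and DEX mouse 4 (57.4% higher), and 1641 to 3002 without single libraries. Deviations from group means correlated at -0.2 to 0.171 between libraries of the same mouse number and at -0.238 to 0.206 between libraries of different numbers. These values cannot show whether both muscles of a number come from 1 mouse. A replicate block gave 4391, 1, 1176 and 2575 calls in the 4 comparisons. The median change of all genes stayed between -0.04 and 0. The cause of these moves was not tested. Among single genes, signs turned for Foxo1 (0.03 without mice 4 and 5, 0.02 without DEX mouse 3), Pdk4 (-0.12 without mice 2 and 3, -0.07 to 0.40 without single libraries, lowest without DEX mouse 1), Igf1 (0.08 without mice 4 and 5), Ppargc1a (-0.06 without mice 2 and 3, -0.14 without DEX mouse 4 and mice 4 and 5, and -0.21 to 0.29 without single libraries, with -0.04 and -0.02 among them), Sirt1 (0.02 without DEX mouse 4 and mice 4 and 5), Myh7 (-0.18 to 0.13 without single libraries, with 0.11, 0.04 and 0.01 among them), Myh4 (-0.37 without JGT02 mouse 2, to 0.58 without mouse 3), Hmox1 (0.23 without DEX mouse 4 and mice 4 and 5, 0.04 without DEX mouse 4, -1.33 without DEX mouse 1) and Cnn1 (-0.95 without mice 2 and 3, -0.73 without mouse 2, 1.76 without mouse 5). Depth limits genes of few counts.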
